A study of Homo sapiens with 8 samples.

Results

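The genes described here are 38 chosen by name from glucose uptake, glycolysis, lactate handling, pyruvate dehydrogenase control and the pentose phosphate route, and each was read by 1 probe set, namely the brightest on average of those that carry a single gene symbol. These genes were chosen with earlier results of these data known. Of the 38, 36 were measured, among 19775 genes in all: 4 of glucose uptake, 18 of glycolysis, 2 of lactate handling, 9 of pyruvate dehydrogenase control and 3 of the pentose phosphate route. The lactate transporter genes SLC16A1 and SLC16A3 are not analysed here.

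MDA-MB-453, a breast cancer cell line that responds to androgen and lacks estrogen receptor, was held for 3 days in steroid-depleted, phenol red-free medium. DHT (5α-dihydrotestosterone, a more potent androgen than testosterone) was then given at 10 nM for 4, 16 or 48 h, or vehicle in its place, and Affymetrix arrays measured the RNA. Each of the 4 groups had 2 arrays, labelled as biological replicates of this 1 line. No time is recorded for the vehicle arrays, so an effect of DHT and one of time in culture cannot be told apart, and all 3 comparisons with vehicle share the same 2 control arrays. Values are log2 signals, where 1 unit is a doubling, and levels are not compared between genes because probe sets differ in brightness.

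Cells break glucose down to pyruvate in the cytosol by glycolysis, and pyruvate then either becomes lactate or enters mitochondria, where the pyruvate dehydrogenase complex turns it into acetyl-CoA. Pyruvate dehydrogenase kinases (PDK) switch that complex off by phosphorylation, and its phosphatases switch it back on. The pentose phosphate route branches from the first glycolytic intermediates and supplies NADPH and ribose. Many of these enzymes exist as several isoforms, and HIF-1 and MYC are textbook activators of a good part of them in tumour cells.

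Median signals of the arrays lay between 7.59 and 7.63 log2 units, and replicates correlated across genes at r = 0.995 to 0.997 (genes are not independent replicates). DHT 16 h replicate 2 stood apart in the 3′ minus 5′ signal of the ACTB control probe sets, at 1.52 log2 units against 0.203 to 0.945 on the other 7 arrays, and in that of the GAPDH control probe sets, at 0.817 against 0.185 to 0.349. The 8 measured markers of luminal mammary epithelium, among them KRT8, KRT18, ERBB2 and EPCAM, read between 9.13 and 14.2, and the 11 markers of basal, stromal, immune, endothelial and fat cells between 5.24 and 10.7, a rough check only, since brightness differs between probe sets. Of these 11, KRT5 alone was called, higher at 48 h (0.51), and their log2 signals summed to 88.8 and 88.9 on the 48 h arrays against 87.4 and 88.5 on the vehicle arrays. Of the 8 luminal markers, 0 were called at 4 h, yet all 8 lay below vehicle there, with a median log2 change of -0.18. In limma 3 of them had an unadjusted p below 0.05 at 4 h. At 16 h 2 rose and 2 fell, and at 48 h KRT19 rose (0.68) while FOXA1 (-0.72), ERBB2 (-0.65) and CDH1 (-0.44) fell. The summed log2 signals of the 8 were 100.8 to 101.0 on the 48 h arrays against 102.0 to 102.2 on the vehicle arrays. These sums were lowest at 4 h, at no more than 100.6, when 0 of the 36 genes were called. Of 13 housekeeping genes outside glycolysis, 0 rose and 1 fell at 16 h, and 0 rose and 2 fell at 48 h. The part of these shifts and of array quality in the results below was not tested.

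At 4 h none of the glucose genes was called. By 16 h 11 of the 36 rose and 3 fell, and by 48 h 14 rose and 3 fell. The rises were spread over glycolysis from hexokinase to lactate dehydrogenase, with PFKFB4, PFKP and the pyruvate dehydrogenase kinase PDK1 at the top. The falls were in the transporter SLC2A10 and in 2 genes that serve active pyruvate dehydrogenase, PDHB and PDP1. A gene was called at an adjusted p below 0.05 in limma, with Benjamini-Hochberg adjustment over all 19775 genes.

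For scale, limma called 0.106% of all genes higher and 0.0708% lower at 4 h, 2.55% higher and 4.3% lower at 16 h, and 3.13% higher and 6.38% lower at 48 h. At 4 h, 0 of the 36 were called in either direction, and 4 had an unadjusted p below 0.05. The median log2 change of the 36 was -0.01 at 4 h, 0.19 at 16 h and 0.17 at 48 h, beside medians of 0.00, 0.02 and 0.01 over all genes. Because the 36 were chosen with earlier results known, their shares and medians beside those of all genes are description and not a test. The 14 genes called at 16 h were all called again at 48 h in the same direction, and SLC2A1, PFKFB3 and PGK1 were added. Of the 18 glycolysis genes, 8 rose at 16 h and 10 at 48 h, with 0 lower, and their median change at 48 h was 0.46. The arrays measured whole cultures, so fewer cells of a kind and less RNA per cell cannot be told apart.

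**Figure D1:**
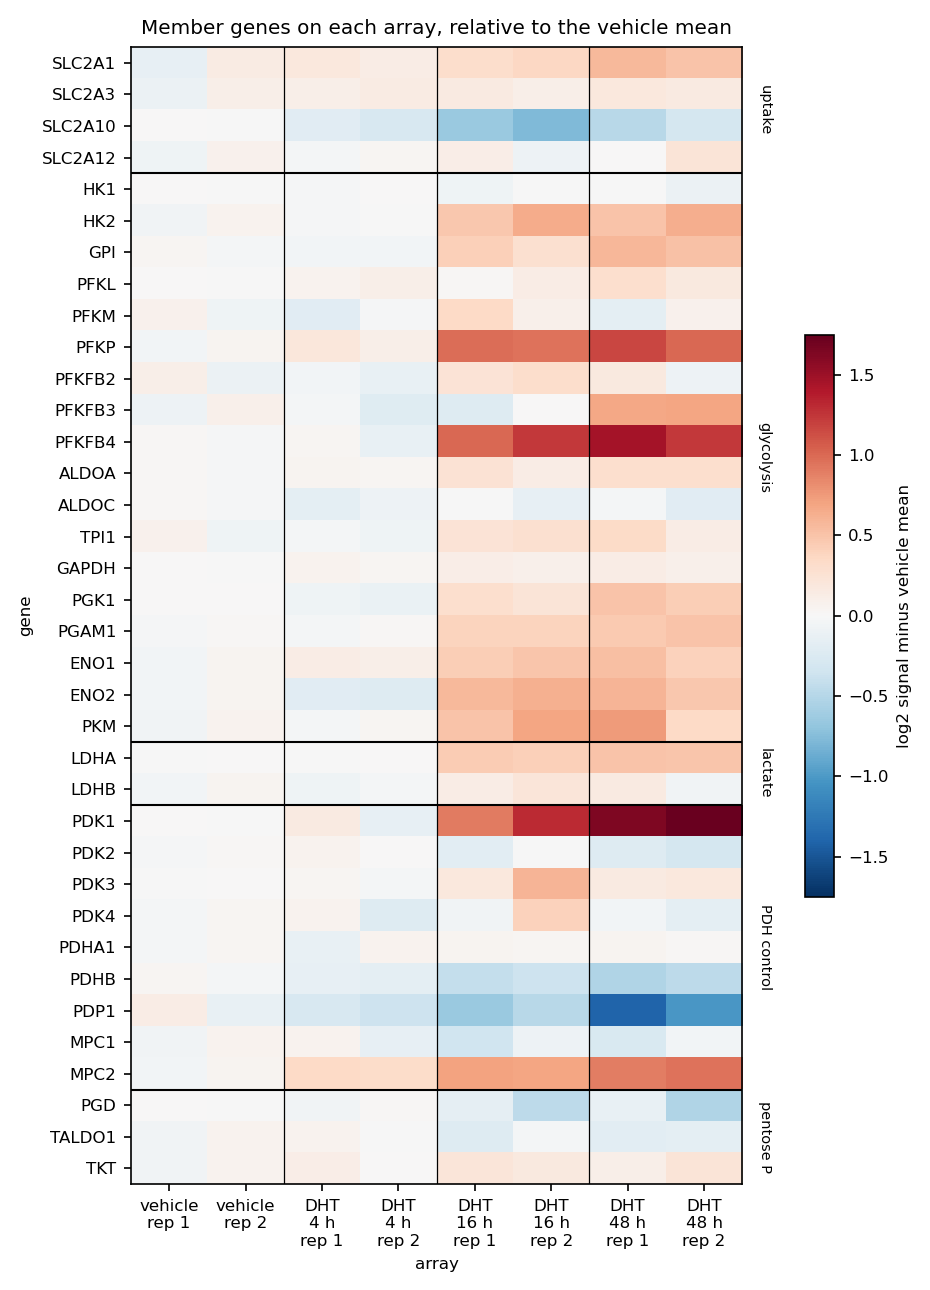
Log2 signal of the 36 measured genes (rows, grouped by step) on each of the 8 arrays (columns), after subtraction of each gene's vehicle mean; red is above and blue below that mean. The 4 h arrays look much like vehicle, while both 16 h and both 48 h arrays are red for PFKP, PFKFB4 and PDK1 and blue for SLC2A10 and PDP1.

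Because several of the genes moved together, the 250 bases before the gene start were searched for short motifs, on both strands, in RefSeq promoters (GRCh38.p14), taking the outermost listed start of each gene; 34 of the 38 genes had an entry. The letters ACGTG, the core of the hypoxia response element, stood before 12 of the 34 (35.3%), against 21.1% of the 15384 measured genes with an entry. They stood before 5 of 14 genes that rose (35.7%), both of the 2 with an entry that fell, and 5 of 17 that were not called (29.4%). The E-box CACGTG, a site for MYC and MAX that contains ACGTG, stood before 4 of 34 (11.8%, against 7.78%), and AGAACA, the core of androgen and glucocorticoid response elements, before 2 of 34 (5.88%, against 9.32%). By call, CACGTG stood before 1 of 14 genes that rose (7.14%), namely LDHA. It stood before 1 of the 2 with an entry that fell and 2 of 17 that were not called (11.8%). These matches are descriptions and not binding sites. The 6 windows below were picked after the values were seen, to show where the letters lie in 4 genes that rose, in PDHB, which fell, and in ALDOC, which was not called. Capitals mark ACGTG, read as CACGT on the other strand, and CACGTG where the readings overlap.
HK2, chr2:74833877-74834126, + strand: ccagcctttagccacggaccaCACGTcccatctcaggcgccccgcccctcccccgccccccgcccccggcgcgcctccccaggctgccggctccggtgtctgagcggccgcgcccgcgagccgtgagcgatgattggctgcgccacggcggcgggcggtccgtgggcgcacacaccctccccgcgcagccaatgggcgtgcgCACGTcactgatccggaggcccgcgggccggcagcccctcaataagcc
PGK1, chrX:78103998-78104247, + strand: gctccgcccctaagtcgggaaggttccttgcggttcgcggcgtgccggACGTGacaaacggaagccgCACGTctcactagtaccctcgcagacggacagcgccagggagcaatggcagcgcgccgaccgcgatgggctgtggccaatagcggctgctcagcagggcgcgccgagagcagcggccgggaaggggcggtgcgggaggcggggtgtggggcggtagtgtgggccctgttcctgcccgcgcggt
ENO2, chr12:6914330-6914579, + strand: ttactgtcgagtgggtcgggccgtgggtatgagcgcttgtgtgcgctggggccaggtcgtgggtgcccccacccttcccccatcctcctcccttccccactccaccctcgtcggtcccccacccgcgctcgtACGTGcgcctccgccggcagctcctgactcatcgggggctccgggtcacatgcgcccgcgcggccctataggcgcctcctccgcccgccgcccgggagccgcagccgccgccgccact
LDHA, chr11:18394313-18394562, + strand: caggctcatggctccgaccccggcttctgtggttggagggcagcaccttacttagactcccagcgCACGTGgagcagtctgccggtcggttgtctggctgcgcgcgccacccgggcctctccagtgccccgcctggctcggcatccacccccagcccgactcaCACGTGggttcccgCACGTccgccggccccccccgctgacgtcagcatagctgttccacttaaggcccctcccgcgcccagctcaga
PDHB, chr3:58433833-58434082, - strand: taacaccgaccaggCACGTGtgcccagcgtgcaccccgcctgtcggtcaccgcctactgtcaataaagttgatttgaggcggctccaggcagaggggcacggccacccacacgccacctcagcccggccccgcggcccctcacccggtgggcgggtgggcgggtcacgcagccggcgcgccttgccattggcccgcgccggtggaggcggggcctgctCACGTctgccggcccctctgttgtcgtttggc
ALDOC, chr17:28576896-28577145, - strand: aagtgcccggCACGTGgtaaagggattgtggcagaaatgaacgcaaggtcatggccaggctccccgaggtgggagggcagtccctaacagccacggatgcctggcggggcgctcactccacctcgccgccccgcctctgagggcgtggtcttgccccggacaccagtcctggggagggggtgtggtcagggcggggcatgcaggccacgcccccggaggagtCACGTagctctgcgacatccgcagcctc
LDHA held 2 E-boxes, with first bases at -185 and -87 from the start, and a further ACGTG on the other strand. ALDOC held 1 E-box as well, at -240, and its signal did not pass the test at any time.

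Glucose uptake is set by transporters of the SLC2A family. SLC2A1, the widespread basal transporter of tumour cells, read 9.56 and 9.84 log2 units in vehicle, 9.89 and 9.83 at 4 h, 10.01 and 10.07 at 16 h, and 10.26 and 10.20 at 48 h. Both 48 h arrays lay above both vehicle arrays, and the rise of 0.53 ± 0.11 (SE, n = 2 a group, adjusted p = 0.0083) was 1.44-fold. SLC2A10, a transporter placed in internal membranes, read 10.78 on both vehicle arrays, 10.58 and 10.49 at 4 h, 10.13 and 10.01 at 16 h, and 10.29 and 10.47 at 48 h. Every DHT array lay below vehicle, with a change of -0.71 ± 0.10 at 16 h (adjusted p = 0.00137) and -0.40 ± 0.10 at 48 h (adjusted p = 0.0247). SLC2A3 and SLC2A12 were not called, with changes between 0.00 and 0.17 against vehicle. A dimmer probe set of SLC2A1 gave 0.23 at 48 h with no call, and the 48 h call of SLC2A10 was lost when arrays were set to equal housekeeping signal.

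At hexokinase, the first step of glycolysis, the change differed by isoform. HK2, the inducible hexokinase, read 10.82 and 10.96 in vehicle, 10.86 and 10.89 at 4 h, 11.36 and 11.54 at 16 h, and 11.39 and 11.52 at 48 h. It stood higher on all 4 late arrays, by 0.56 ± 0.10 at both 16 h (adjusted p = 0.0067) and 48 h (adjusted p = 0.0046). Its 2 dimmer probe sets had 0.16 each at 16 h, and -0.02 and -0.17 at 48 h, and with the 3 averaged HK2 was not called at 16 h (0.29, adjusted p = 0.133) or 48 h (0.13, adjusted p = 0.522). HK1, the widespread constitutive hexokinase, had -0.05 at 16 h and -0.06 at 48 h, with a 95% interval from -0.26 to 0.14 at 48 h. GPI, which converts glucose phosphate to fructose phosphate, read 13.54 and 13.47 in vehicle, 13.46 on both 4 h arrays, 13.91 and 13.78 at 16 h, and 14.08 and 14.01 at 48 h. The late arrays did not overlap vehicle, and GPI rose by 0.34 ± 0.09 at 16 h (adjusted p = 0.0485) and 0.54 ± 0.09 at 48 h (adjusted p = 0.0032).

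Phosphofructokinase is the main control point of the route. PFKP, its platelet-type subunit, read 11.05 and 11.14 in vehicle, 11.29 and 11.19 at 4 h, 12.07 and 12.05 at 16 h, and 12.27 and 12.11 at 48 h. The late arrays lay well above vehicle, and PFKP rose 1.95-fold at 16 h (0.96 ± 0.10, adjusted p = 0.00014) and 2.13-fold at 48 h (1.09 ± 0.10, adjusted p = 2.6e-05). The liver-type PFKL had 0.08 at 16 h and 0.23 at 48 h, and the muscle-type PFKM 0.22 and -0.05, all with no call.

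PFKFB enzymes make and break the small sugar phosphate that activates phosphofructokinase. PFKFB4 read 9.31 and 9.26 in vehicle, 9.32 and 9.15 at 4 h, 10.29 and 10.52 at 16 h, and 10.75 and 10.53 at 48 h. It was about level with vehicle at 4 h and rose 2.17-fold at 16 h (1.12 ± 0.12, adjusted p = 0.00017) and 2.55-fold at 48 h (1.35 ± 0.12, adjusted p = 2.2e-05). PFKFB3, the isoform that favours synthesis of the activator, read 9.31 and 9.50 in vehicle, 9.37 and 9.19 at 4 h, 9.18 and 9.42 at 16 h, and 10.08 and 10.09 at 48 h. Its 4 h and 16 h arrays overlapped vehicle, and the rise of 0.68 ± 0.11 came at 48 h (adjusted p = 0.0027). PFKFB2, known as a heart isoform and an androgen-induced gene of prostate cancer cells, had 0.27 at 16 h and 0.04 at 48 h with no call. Its other 3 probe sets had changes of 0.15 to 0.56 at 16 h and 0.16 to 0.39 at 48 h. At 16 h it was called higher when its probe sets were averaged (0.34, adjusted p = 0.0426) and when it was read outside the _s_at and _x_at kinds, which can match several transcripts (0.56, adjusted p = 0.0284).

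PGK1, the first enzyme of the route to yield ATP, read 14.44 on both vehicle arrays, 14.36 and 14.33 at 4 h, 14.73 and 14.66 at 16 h, and 14.93 and 14.86 at 48 h. It stood at 0.26 at 16 h with no call and rose by 0.46 ± 0.09 at 48 h (adjusted p = 0.0064). The 5 other probe sets of PGK1 were each called higher at 48 h, by 0.64 to 1.46, and at 16 h had changes of 0.02 to 0.50, with 1 of them called (0.50, adjusted p = 0.0237). PGK1 was called at 16 h when read outside the _s_at and _x_at kinds (adjusted p = 0.0100) and with a trended robust variance prior (adjusted p = 0.0112). PGAM1, phosphoglycerate mutase, read 13.26 and 13.30 in vehicle, 13.25 and 13.30 at 4 h, 13.66 and 13.67 at 16 h, and 13.74 and 13.77 at 48 h. It rose by 0.39 ± 0.09 at 16 h (adjusted p = 0.0200) and 0.48 ± 0.09 at 48 h (adjusted p = 0.0047), with no overlap with vehicle at either time.

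Both enolases among the 38 rose. ENO1, the widespread form, read 13.79 and 13.88 in vehicle, 13.96 and 13.94 at 4 h, 14.26 and 14.32 at 16 h, and 14.36 and 14.24 at 48 h. It gained 0.46 ± 0.09 at 16 h (adjusted p = 0.0119) and 0.47 ± 0.09 at 48 h (adjusted p = 0.0081), while its 3 other probe sets, with changes of -0.24 to 0.68 at 16 h and 0.45 to 0.59 at 48 h, had no call. ENO2, known as the neuronal enolase, read 10.21 and 10.30 in vehicle, 10.05 and 10.03 at 4 h, 10.82 and 10.87 at 16 h, and 10.84 and 10.72 at 48 h. The 4 h arrays lay below vehicle and the late ones above it: -0.21 ± 0.09 at 4 h with no call, 0.60 ± 0.09 at 16 h (adjusted p = 0.0026) and 0.53 ± 0.09 at 48 h (adjusted p = 0.0036).

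PKM, pyruvate kinase, which makes the last ATP of glycolysis, read 12.98 and 13.10 in vehicle, 13.00 and 13.08 at 4 h, 13.53 and 13.73 at 16 h, and 13.78 and 13.39 at 48 h. The 48 h replicates lay apart, yet both stood above vehicle, and PKM rose by 0.59 ± 0.13 at 16 h (adjusted p = 0.0179) and 0.55 ± 0.13 at 48 h (adjusted p = 0.0210). A dimmer probe set of PKM had 0.10 at 16 h with no call and was called higher at 48 h by 0.66. With all probe sets in the fit PKM was not called at 16 h or 48 h, and with its probe sets averaged it was not called at 16 h. LDHA, which turns pyruvate into lactate, read 14.75 on each vehicle and each 4 h array, 15.20 and 15.17 at 16 h, and 15.24 and 15.23 at 48 h. Its late arrays did not overlap vehicle, and it rose by 0.43 ± 0.09 at 16 h (adjusted p = 0.0105) and 0.49 ± 0.09 at 48 h (adjusted p = 0.0038). LDHB, the subunit known to favour the reverse reaction, had 0.17 and 0.05 with no call.

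Between the upper and lower steps 4 enzymes did not pass the test as fitted. ALDOA, the main aldolase, read 15.11 to 15.14 in vehicle and 15.42 to 15.43 at 48 h, a change of 0.30 (adjusted p = 0.0634), and its dimmest probe set was called higher at 48 h by 0.67. At 48 h ALDOA was called higher when its probe sets were averaged (0.41, adjusted p = 0.0121), at equal housekeeping signal (0.37, adjusted p = 0.0291) and with the trended robust prior (0.30, adjusted p = 0.0027). GAPDH, which makes the first NADH of the route, stood at 15.33 to 15.47 on all 8 arrays, close to the highest value of the whole table, 15.57, and had 0.11 at 48 h. TPI1, triose phosphate isomerase, had 0.26 at 16 h and 0.24 at 48 h, and ALDOC, the brain aldolase, -0.08 and -0.11. GAPDH, TPI1 and ENO2 are near neighbours on chromosome 12 in GRCh38.p14, at 6534517 to 6538371, 6867420 to 6870948 and 6914580 to 6923697, and of these ENO2 was the called one.

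**Figure D2:**
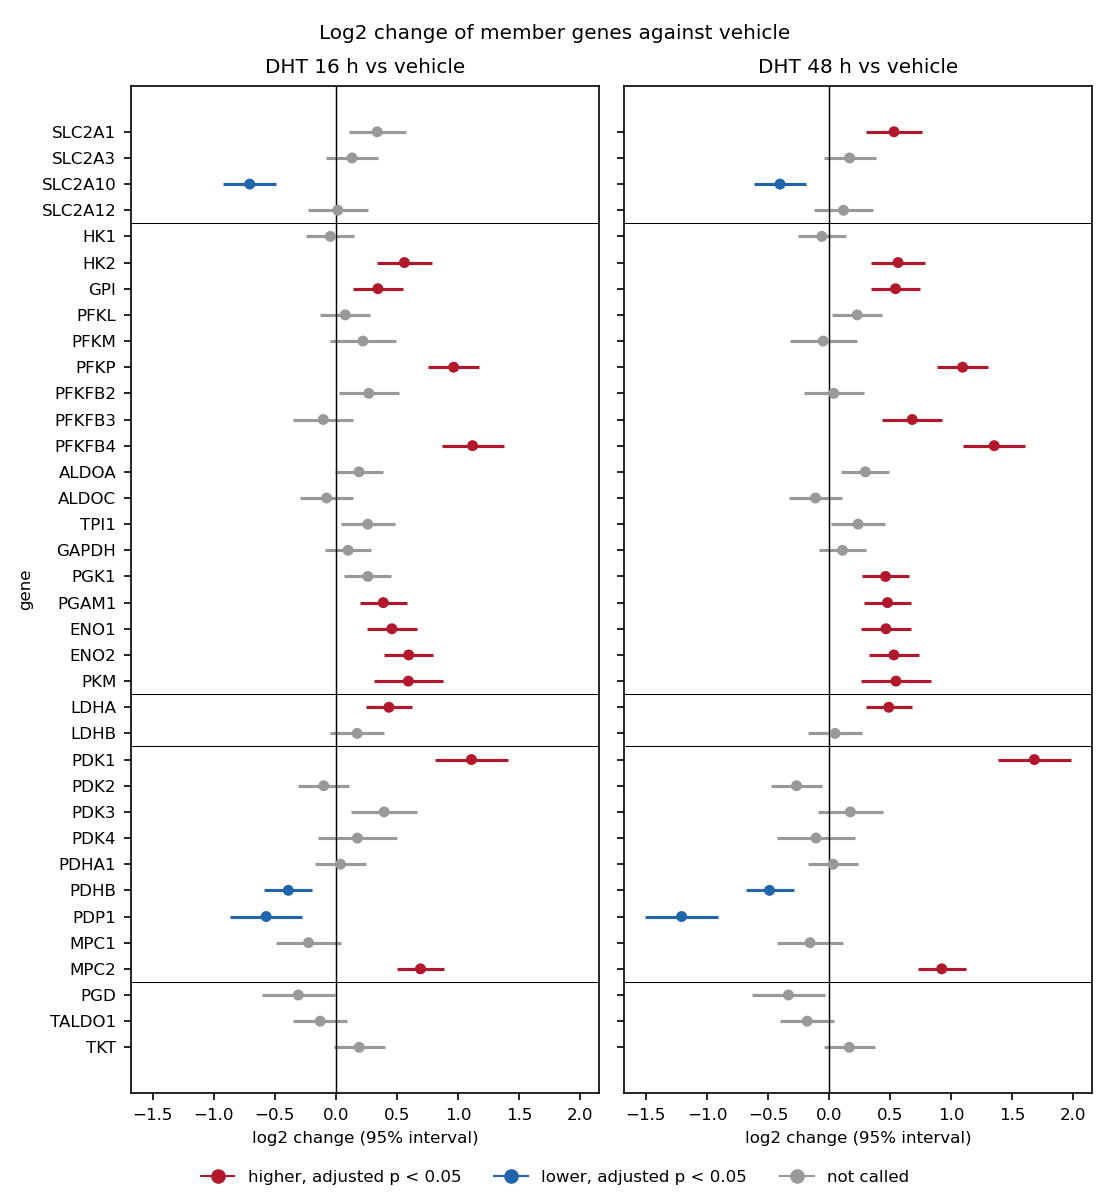
Log2 change against vehicle (horizontal axis, with 95% interval from limma) of each measured gene at 16 h (left) and 48 h (right), in the order of the pathway. PFKP, PFKFB4, PDK1 and MPC2 lie farthest to the right at both times, PFKFB3 stands at -0.10 at 16 h and at 0.68 at 48 h, and PDP1 lies farthest to the left at 48 h.

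Among the steps, the genes of pyruvate dehydrogenase control showed the widest spread of log2 change in RNA, from 1.68 to -1.21 at 48 h. PDK1, a kinase that inactivates pyruvate dehydrogenase, read 8.98 and 8.97 in vehicle, 9.13 and 8.83 at 4 h, 9.89 and 10.28 at 16 h, and 10.61 and 10.70 at 48 h. It rose 2.16-fold at 16 h (1.11 ± 0.14, adjusted p = 0.00056) and 3.21-fold at 48 h (1.68 ± 0.14, adjusted p = 1.4e-05). Its 2 other probe sets had 0.67 and 0.26 at 16 h with no call, and were called higher at 48 h, by 1.33 and 1.42. The other 3 kinases were not called. PDK3 had 0.39 at 16 h, with 10.32 and 10.72 on its 16 h arrays against 10.12 and 10.13 in vehicle. It was called higher there when arrays were set to equal housekeeping signal (0.47) and after quantile normalization (0.44). Without DHT 16 h replicate 1 its change was 0.60, read from replicate 2 alone, the array that stood apart in its ACTB and GAPDH control signals. The other probe sets of PDK3 had changes of -0.12 to 0.26 at 16 h with no call. PDK2 had -0.27 at 48 h, and PDK4, the starvation-induced kinase, read between 5.29 and 5.93 on all arrays and had no call.

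PDP1, a phosphatase that reactivates the complex, moved the other way. It read 10.14 and 9.88 in vehicle, 9.73 and 9.65 at 4 h, 9.35 and 9.52 at 16 h, and 8.61 and 8.99 at 48 h. Every DHT array lay below both vehicle arrays, with a change of -0.57 ± 0.13 at 16 h (adjusted p = 0.0266) and -1.21 ± 0.13 at 48 h (adjusted p = 0.00018), and its second probe set was called lower at 48 h (-0.78). At 16 h that probe set had -0.56 with no call, and PDP1 lost its own 16 h call with all probe sets in the fit (adjusted p = 0.0764 in limma). PDHB, a subunit of the enzyme itself, read 12.25 and 12.17 in vehicle, 12.07 and 12.04 at 4 h, 11.79 and 11.85 at 16 h, and 11.69 and 11.76 at 48 h. It fell by 0.39 at 16 h (SE 0.09, adjusted p = 0.0231) and by 0.49 at 48 h (SE 0.09, adjusted p = 0.0051). The second probe set of PDHB had -0.39 at 16 h and -0.34 at 48 h, both with no call. The 16 h call of PDHB was lost at equal housekeeping signal, with all probe sets in the fit and with only the 4 arrays compared. PDHA1, the partner subunit that carries the phosphorylation sites, had 0.04 at 16 h and 0.03 at 48 h, with a 95% interval from -0.18 to 0.24 at 48 h.

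MPC1 and MPC2 form the carrier that brings pyruvate into mitochondria. MPC2 read 12.15 and 12.26 in vehicle, 12.55 and 12.53 at 4 h, 12.91 and 12.89 at 16 h, and 13.11 and 13.15 at 48 h. No DHT array overlapped vehicle, and it rose 1.62-fold at 16 h (0.69 ± 0.09, adjusted p = 0.0008) and 1.89-fold at 48 h (0.92 ± 0.09, adjusted p = 5.6e-05), with its dim second probe set called higher too (0.75 and 0.72). At 4 h MPC2 had 0.33, the smallest adjusted p of the 36 genes there being its own (0.301). MPC1 had -0.23 at 16 h and -0.16 at 48 h with no call, and was called lower at 16 h (-0.31) when its probe sets were averaged.

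**Figure D3:**
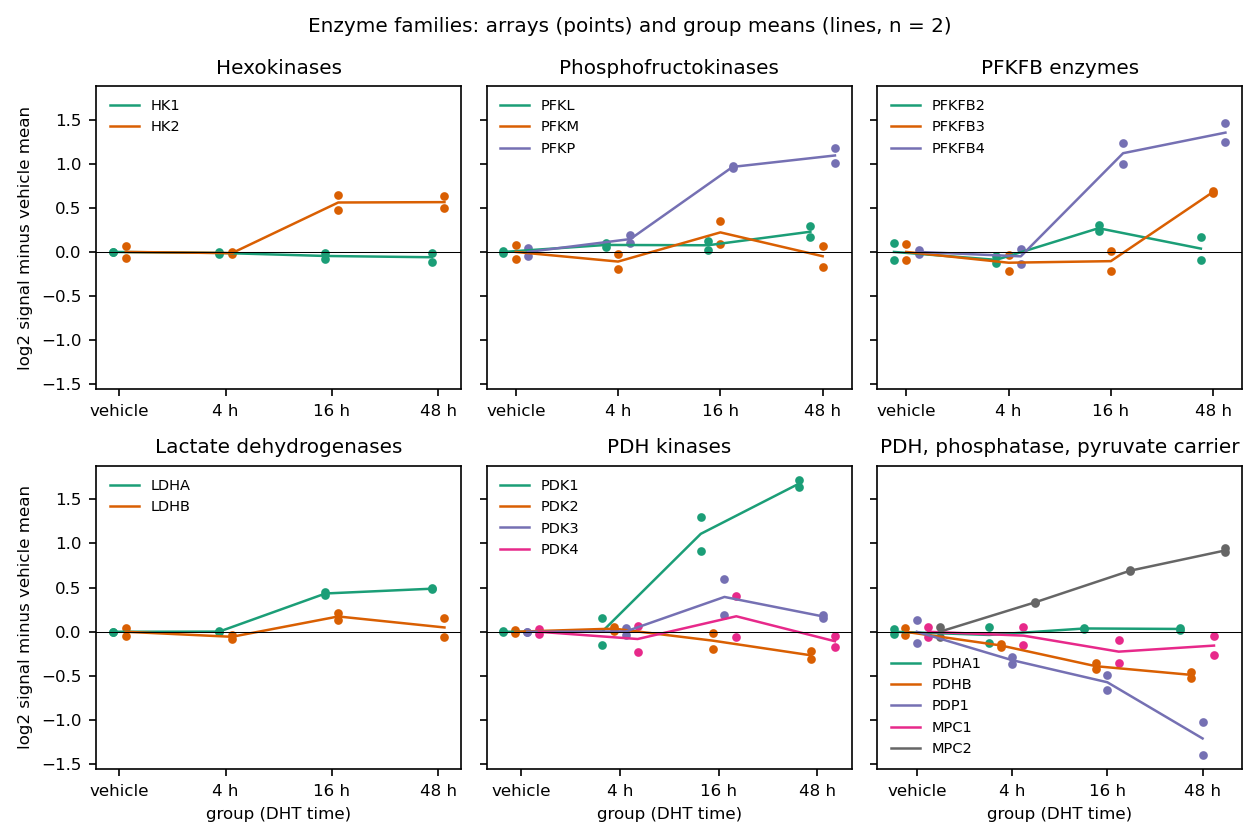
Log2 signal minus the gene's vehicle mean (vertical axis) for vehicle and for DHT at 4, 16 and 48 h (horizontal axis), with each array as a point and lines through group means. Within each family 1 isoform or 2 left the zero line: HK2, PFKP, PFKFB4 (and PFKFB3 at 48 h), LDHA and PDK1, while MPC2 climbed and PDP1 and PDHB went down.

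Of the 38 genes, 3 belong to the pentose phosphate route, and none of these was called in limma. PGD alone of the 3 had an unadjusted p below 0.05, at both 16 h and 48 h. PGD, the dehydrogenase that yields NADPH, read 12.10 and 11.80 at 16 h and 12.12 and 11.73 at 48 h against 12.27 and 12.25 in vehicle, and its change at 48 h was -0.33 (adjusted p = 0.177). The dimmer probe sets of PGD had the opposite sign, with 0.10 and 0.18 at 16 h and 0.09 and 0.20 at 48 h, and no call. Transaldolase, TALDO1, had -0.13 and -0.18 at 16 h and 48 h, and transketolase, TKT, 0.19 and 0.17. H6PD, an enzyme of the same route in the endoplasmic reticulum and outside the 38, was called higher at 48 h (0.31, adjusted p = 0.0473) and lost its call without 6 of the 8 arrays in turn. The 95% intervals at 48 h ran from -0.63 to -0.03 for PGD, from -0.40 to 0.04 for TALDO1 and from -0.04 to 0.38 for TKT.

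The comparisons between DHT times asked when the changes came. At 16 h against 4 h of DHT, 9 of the 36 rose and 1 fell, beside 1.28% of all genes higher and 1.77% lower. PFKFB4 rose by 1.17 ± 0.12 (adjusted p = 0.00021), PDK1 by 1.11, PFKP by 0.82, ENO2 by 0.81, PKM by 0.59, HK2 by 0.57, LDHA by 0.43, and PGAM1 and GPI by 0.39, and SLC2A10 was lower (-0.46). At 48 h against 16 h, 1 of 36 rose and 0 fell, while 6 had an unadjusted p below 0.05, beside 0.349% of all genes higher and 0.48% lower. That gene was PFKFB3 (0.78 ± 0.11, adjusted p = 0.0081). PDP1 (-0.64, adjusted p = 0.0603) and PDK1 (0.57, adjusted p = 0.0983) were not called in this step.

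Many of the smaller calls were lost when 1 array was left out, which also leaves fewer arrays to estimate the spread. At 16 h the change of LDHA stayed at 0.42 to 0.45 in these fits, while that of PDP1 ran from -0.70 to -0.44. At 16 h, 6 of the 14 calls held without each of the 8 arrays in turn: SLC2A10, PFKP, PFKFB4, ENO2, PDK1 and MPC2. The count was 6 without vehicle replicate 1, where HK2, GPI, PGAM1, ENO1, PKM, LDHA, PDHB and PDP1 were lost, and 9 without DHT 16 h replicate 2, where GPI, PGAM1, ENO1, PKM and PDHB were lost. GPI at 16 h was lost without any 1 of the 8 arrays. At 48 h, 10 of 17 calls held without each array: GPI, PFKP, PFKFB3, PFKFB4, PGAM1, ENO2, LDHA, PDK1, PDP1 and MPC2. The count was 11 without vehicle replicate 1, which ended SLC2A1, SLC2A10, HK2, ENO1, PKM and PDHB, and 11 without DHT 48 h replicate 1, which ended SLC2A1, SLC2A10, PGK1, ENO1, PKM and PDHB. At 16 h against 4 h, 4 calls (PFKP, PFKFB4, ENO2 and PDK1) held without each array, and the count was 4 without DHT 16 h replicate 2 or without either 4 h array. Without either 48 h array PFKFB3 was not called between 16 h and 48 h.

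**Figure D4:**
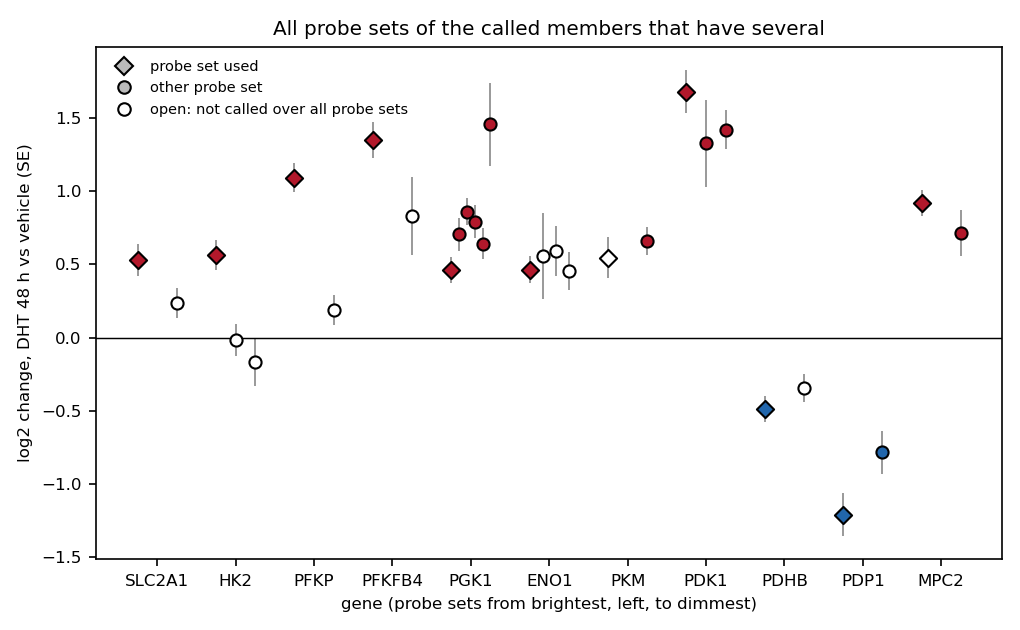
Log2 change at 48 h against vehicle (vertical axis, bars are SE) of every probe set of the called genes that have more than 1, ordered from brightest to dimmest within a gene; diamonds are the probe sets used and open symbols were not called after adjustment over all probe sets. All probe sets of PGK1, PDK1, PDP1 and MPC2 were called in 1 direction, while the dim ones of HK2 lay at -0.02 and -0.17.

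Other probe sets bear on the same genes. Adjusted over all probe sets, 10 of the 19 other probe sets of the genes called at 48 h were called in the same direction and 0 in the opposite one, and 17 had the same sign. At 16 h the counts were 1 of 13 called, 0 opposite, and 12 of the same sign. A dim second probe set of PFKP had 0.19 at 48 h and that of PFKFB4 0.83, both with no call.

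Related genes outside the 38 were read the same way, in lists also chosen with earlier results of these data known. Of 43 measured further genes of the same routes (other transporters, isoforms, subunits and pentose phosphate enzymes), 0 were called at 4 h (2 at an unadjusted p below 0.05 in limma), 2 rose and 2 fell at 16 h, and 4 rose and 2 fell at 48 h. Over all genes, 2.55% were called higher and 4.3% lower at 16 h, and 3.13% higher and 6.38% lower at 48 h. With lists this small, these counts are description and not a result about the routes. DLD, a subunit that pyruvate dehydrogenase shares with other complexes, fell by 0.61 at 16 h (adjusted p = 0.00245) and had -0.31 at 48 h with no call. TIGAR, a p53-induced phosphatase that opposes PFKFB enzymes, had -0.57 at 48 h (adjusted p = 0.0129) and lost its call without 2 of the 8 arrays. LDHD, ENO3 and LDHC were higher at 48 h by 0.46, 0.45 and 0.38, and PRPS1, which makes the ribose phosphate used for nucleotides, was higher at 16 h (0.39), and each of these calls was lost without at least 2 arrays in turn.

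Of 26 genes of gluconeogenesis and glycogen, 2 rose and 1 fell at 16 h, and 5 rose and 1 fell at 48 h. For this list and the branches that follow, the shares over all genes were 2.55% higher and 4.3% lower at 16 h. At 48 h those shares were 3.13% and 6.38%. GAA, which breaks down glycogen in lysosomes, rose by 1.09 at 16 h and 1.57 at 48 h (adjusted p = 8.6e-06). PGM1, which links glucose phosphates to glycogen, rose by 0.64 and 0.60, and at 48 h SLC37A4 (0.79), GBE1 (0.52) and G6PC3 (0.51) were higher. PC, which carboxylates pyruvate, had -0.37 at 16 h and -0.40 at 48 h, both called lower. The call of PC was lost without 6 of the 8 arrays in turn at 16 h and without 5 at 48 h, and that of GBE1 without 2. In the branches to serine and glycerol, 1 of 13 rose and 1 fell at 16 h, and 2 rose and 1 fell at 48 h: PHGDH, the first enzyme of serine synthesis, had 0.75 and 0.54, GPD2, of the glycerol phosphate shuttle, had -0.62 and -0.61, and GOT1 had 0.41 at 48 h. GPD2 lost its call without 2 arrays in turn at each time, and GOT1 without 3. Of 7 hexosamine genes, UAP1L1 rose at 16 h (0.40) and UAP1 at 48 h (0.36), each call lost without at least 4 arrays in turn. None of 16 citrate cycle genes was called in limma against vehicle, with 0, 4 and 3 at an unadjusted p below 0.05 at 4, 16 and 48 h. At 16 h 15 of the 16 lay below vehicle, with a median of -0.14 on the log2 scale. Over all genes, 8647 of 19775 lay below vehicle at 16 h, and the median was 0.02. At 48 h 10 of the 16 lay below vehicle, with a median of -0.05. OGDH, a subunit of the oxoglutarate dehydrogenase complex, was called lower at 16 h against 4 h (-0.49, adjusted p = 0.0283).

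Among 16 regulators, MYC, a transcription factor that drives many glycolytic genes, read 10.54 and 10.55 in vehicle, 12.20 and 12.22 at 4 h, 12.05 and 11.65 at 16 h, and 11.60 and 11.79 at 48 h. It rose by 1.67 at 4 h (adjusted p = 0.00024), 1.31 at 16 h (adjusted p = 0.00011) and 1.15 at 48 h (adjusted p = 0.00016), and its relation to the 36 genes was not tested. HIF1A, the oxygen-regulated subunit of HIF-1, had 0.27 at 16 h and 0.24 at 48 h with no call. EPAS1, its paralog, was lower at 16 h and 48 h (-0.74 and -0.80), EGLN1, the hydroxylase that marks both for breakdown, was higher at those times by 0.45 and 0.69, and TXNIP, a glucose-responsive brake on uptake, was higher at 16 h (0.45) and had 0.13 at 48 h. PRKAA1, a catalytic subunit of AMP-activated kinase, was lower at 48 h (-0.66). The call of TXNIP was lost without 1 array, that of PRKAA1 without 4 in turn and that of EGLN1 at 16 h without 3.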

How the data were processed

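The deposited values are log2 signals per probe set, made with RMA per the submitters' processing notes; no version is given in the sources used here. The table held 54675 probe sets on 8 arrays. Of these, 41091 carried 1 gene symbol, 1801 several and 11721 none, and 62 were control probe sets. They gave 19775 genes, with the brightest single-symbol probe set standing for each gene. The number of arrays limits the precision. From the deposited log2 values, limma 3.58.1 in R 4.3.3 fitted 4 group means to the 8 arrays, with 4 residual degrees of freedom and 7.21 from the prior, and p-values were adjusted over all genes (Benjamini-Hochberg); a gene was called below 0.05. An exact permutation test of 2 against 2 arrays cannot go below p = 0.333. Genes called against vehicle are given on every array and others by value or range; of each other list, up to 6 called genes with the largest change are named, plus HIF1A, MYC and TXNIP. The members and lists were chosen with earlier results of these data known. Deviations of same-numbered replicates correlated at -0.24 to 0.20 between groups, so the numbers were not taken as pairs. Alternatives changed the probe sets, filter, normalization, scaling, variance prior, array weights, samples in the fit, block and arrays left out.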

Additional observations from a re-analysis of the deposited data

Results flagged for a closer look

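Several genes differed between DHT times in limma, so that their change against the shared vehicle arrays was not the same at each time. At 16 h against 4 h the log2 difference was 1.17 for PFKFB4, 1.11 for PDK1, 0.82 for PFKP and 0.81 for ENO2. It was 0.59 for PKM, 0.57 for HK2, 0.43 for LDHA, and 0.39 for both GPI and PGAM1, and it was -0.46 for SLC2A10. GPI and PGAM1 lost this call without any 1 of the 8 arrays, and SLC2A10, HK2, PKM and LDHA lost it without either 4 h array or DHT 16 h replicate 2. At 48 h against 16 h the difference was 0.78 for PFKFB3. That call was lost without either 48 h array.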

How the results depend on the processing

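With 2 arrays a group, the smaller calls are the uncertain ones. Genes of the 38 called at 4 h numbered 0 under every alternative. At 16 h (14 called) leaving out 1 array gave 6 to 13. At 48 h (17 called) it gave 11 to 17, and probe sets outside the _s_at and _x_at kinds gave 10 of 23 tested. At 16 h against 4 h (10 called) it gave 4 to 9, all probe sets in the fit gave 5 and only the 4 arrays compared gave 6. At 48 h against 16 h (1 called) it gave 0 to 2, all probe sets gave 0, and the mean of probe sets, equal housekeeping signal and the trended robust prior each gave 2. Over all genes at 4 h (35 called) the counts were 8 with all probe sets, 18 outside those kinds, 67 with the trended robust prior, 74 with array weights and 5 to 60 without 1 array. At 16 h (1354) they were 813 with all probe sets, 894 outside those kinds, 798 with only the 4 arrays and 517 to 1654 without 1 array, and at 48 h (1881) 1229 with all probe sets and 834 to 2211 without 1 array. Equal housekeeping signal turned the split of all genes to 1032 higher and 646 lower at 16 h, against 504 and 850, and to 1074 and 944 at 48 h, against 619 and 1262; of the 36 genes it called 13 higher and 2 lower at 16 h, and 15 and 2 at 48 h. ENO1 at 16 h reversed to -0.24 (adjusted p = 0.367 in limma) when read by its probe set outside those kinds; the cause was not tested. With the replicate number as a block, 13 of the 36 were called at 16 h, 17 at 48 h, 8 at 16 h against 4 h (GPI and PGAM1 were lost) and 1 at 48 h against 16 h, and 25, 1261 and 1729 of all genes at 4, 16 and 48 h.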
